A study of Gallus gallus with 3 samples.

Results

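BMP4, BAMBI, NBL1, ID1 and ID2 are components and read-outs of the bone morphogenetic protein (BMP) pathway, and their RNA levels are described here in every cell population of the developing chicken foot. The 5 genes were chosen by their Ensembl identifiers: BMP4 (ENSGALG00000012429), BAMBI (ENSGALG00000040993), NBL1 (ENSGALG00000040297), ID1 (ENSGALG00000034661) and ID2 (ENSGALG00000035016). All 5 had a column in each of the 3 count tables, which together hold 11442 genes. Single-cell RNA-sequencing had been carried out on the hindlimb of untreated chicken embryos (Gallus gallus, strain and genotype not given in the sources used here) at stages HH25, HH29 and HH31 of the Hamburger-Hamilton series. At HH25 the whole autopod, the future foot, was dissected and run on the 10X Genomics platform. At HH29 digits 3 and 4 were taken, with the interdigit tissue beside them, and run on Drop-Seq as 3 technical replicates of the same sample. At HH31 the tip of digit 4 was dissected and run on 10X Genomics. The HH25 and HH31 tables each combine sequencing runs of the same library, and the number of embryos is not given in the sources used here. Each stage is 1 library, so no difference could be tested between replicates, and stage, platform and dissection cannot be told apart.

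BMPs are secreted ligands of the TGF-beta family that bind pairs of type I and type II serine/threonine kinase receptors, which phosphorylate SMAD proteins that then enter the nucleus and switch on target genes. BMP4 is such a ligand, NBL1 (also known as DAN) is a secreted protein that binds BMPs outside the cell, and BAMBI is a membrane protein that resembles a type I receptor but lacks the kinase domain. ID1 and ID2 are inhibitors of basic helix-loop-helix transcription factors and classical target genes of BMP signalling. In the limb the pathway is known for its part in the function of the apical ectodermal ridge (AER), in cartilage formation, in joint positioning and in the death of interdigit cells.

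The authors' fine-scale sub-clusters were kept as cell populations, 8 at HH25, 18 at HH29 and 11 at HH31. After filtering, 5788 of 5982, 6806 of 6823 and 4583 of 4823 deposited cells remained (17177 in all), with a median of 2064, 2946 and 2520 unique molecular identifiers (UMIs, 1 per captured RNA molecule) per cell. Levels are given as CPM, the UMIs of a gene per 1000000 UMIs summed over a population, and every interval is a 95% interval (exact Poisson for CPM, exact conditional binomial for a ratio, Clopper-Pearson for a share of cells) that covers counting error only. Of 78 marker checks, each a gene at a stage, 77 were higher inside their own population than in the rest of the library. The exception was AKR1D1 in the connective tissue of HH25. Many genes were checked at more than 1 stage, and none was for muscle. Several were named by the study as markers of these same cells, so these passes are weak support for the labels. A few features touch the results below. HH29 sub-cluster 2, named the 4th interdigit, held 3509 CPM of the haemoglobin RNAs HBAA and HBAD, against 16.1 to 183 CPM in the other 17 sub-clusters, and HH25 sub-cluster 3, labelled blood, held 3867 CPM beside 1202 CPM of the mesenchyme markers PRRX1 and PCNA. HH31 sub-cluster 6 is left unnamed, since skin markers summed to 17.5 CPM there and to 957 CPM in the skin. The HH25 and HH31 libraries shared 47 cell barcodes, and the HH29 technical replicates shared at most 3 with each other. The sub-clusters had been built from all genes, the 5 described here included, so the levels by sub-cluster are descriptions.

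Over whole libraries, the ligand BMP4 stood at 20.8, 78.4 and 69.6 CPM in the libraries of HH25, HH29 and HH31, and a BMP4 UMI was found in 3.92%, 17.8% and 14.97% of cells. BAMBI stood at 22.5, 18.2 and 103 CPM and was found in 4.72%, 5.50% and 20.4% of cells. After thinning every cell to 1000 UMIs these shares became 1.61%, 6.98% and 6.39% for BMP4 and 2.37%, 1.46% and 9.51% for BAMBI. BAMBI was thus seen in the largest share of cells in the HH31 library and BMP4 in the smallest share at HH25, with and without thinning. The antagonist NBL1 stood at 156, 165 and 379 CPM, and ID1 at 756, 926 and 728 CPM. ID2 stood at 80.7, 614 and 166 CPM, and ID3, another inhibitor of the same family, likewise had its highest level in the Drop-Seq library, with 27.5, 426 and 47.6 CPM. Whether these differences between libraries belong to stage, tissue or platform cannot be told apart. Every ratio below is taken within a library, and differences of such ratios between stages were not tested.

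**Figure D1:**
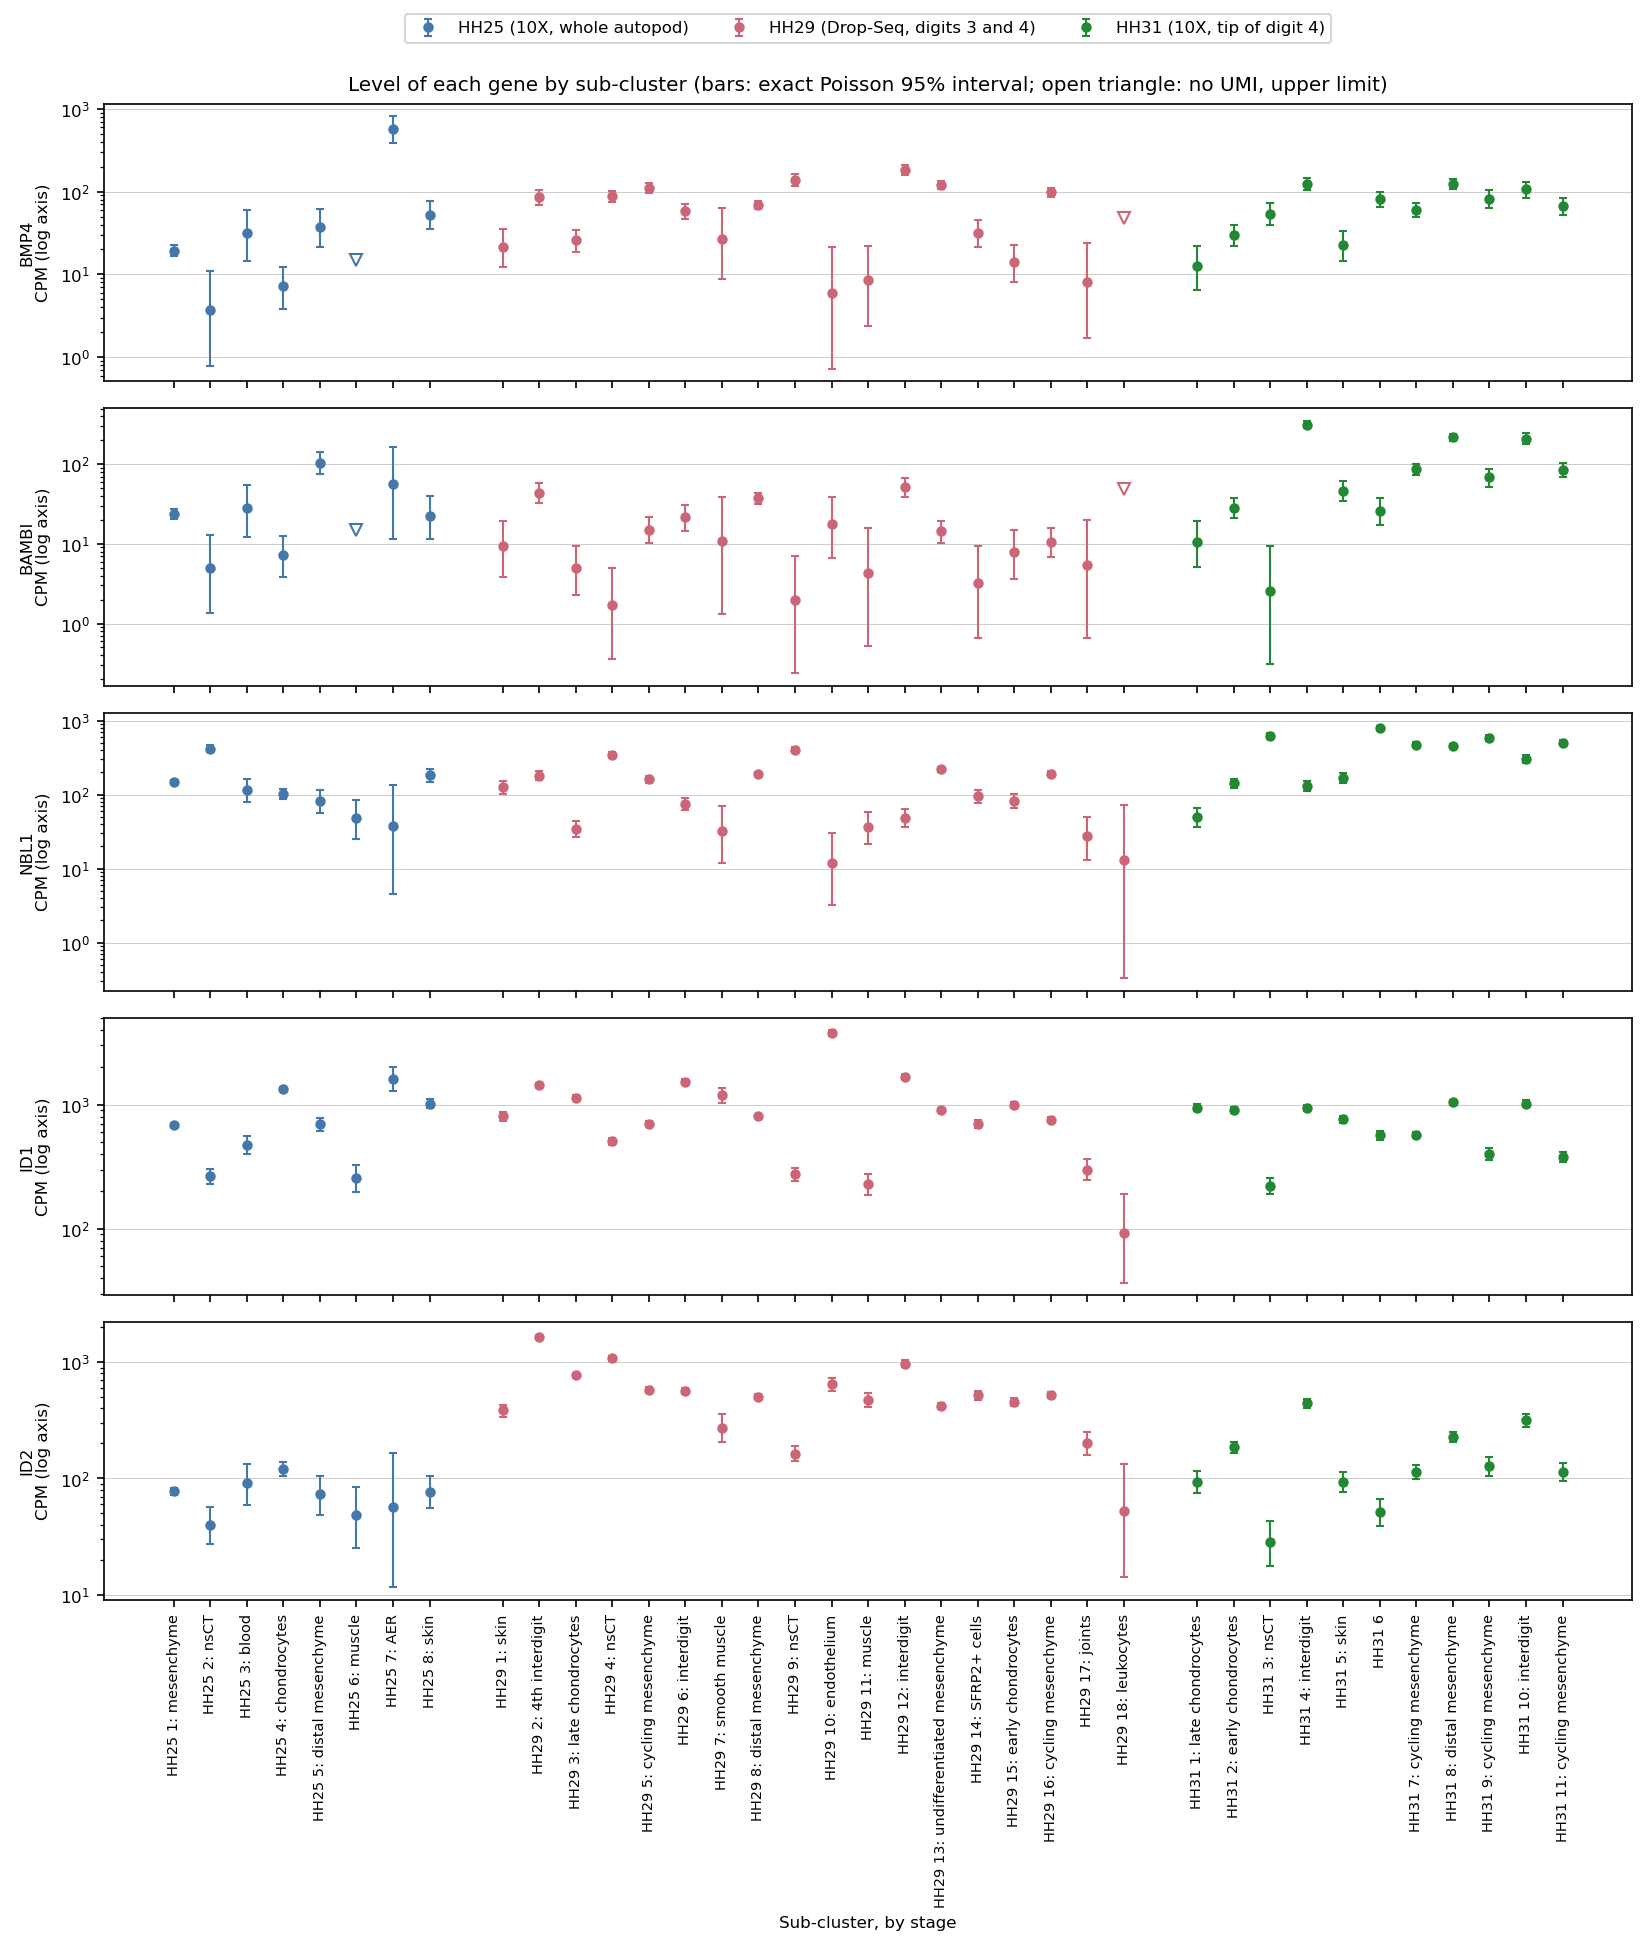
Level of BMP4, BAMBI, NBL1, ID1 and ID2 (CPM, log axis) in each of the 37 sub-clusters, coloured by stage, with exact Poisson 95% intervals; an open triangle marks a sub-cluster without a UMI, drawn at its upper limit. BMP4 peaked in the AER at HH25 and in interdigit sub-clusters at HH29 and HH31, BAMBI in distal mesenchyme or interdigit, and NBL1 in the non-skeletal connective tissue or in HH31 sub-cluster 6.

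BMP4 RNA was concentrated in the AER at HH25, the strip of ectoderm at the limb margin that keeps the limb growing. Its 22 cells, 0.38% of the library, held 30 of the 281 BMP4 UMIs, a level of 565 CPM (381 to 806), and 11 of the 22 cells carried at least 1 UMI. A single AER cell accounted for 10 of those UMIs. The remaining HH25 populations were far lower. The rest of the skin stood at 52.6 CPM (35.0 to 76.1), distal mesenchyme at 37.9 CPM (21.2 to 62.4), the blood-labelled sub-cluster at 31.5 CPM and mesenchyme at 19.4 CPM (16.7 to 22.5). Chondrocytes (7.28 CPM) and non-skeletal connective tissue (nsCT, 3.77 CPM from 3 UMIs) were at the low end. No BMP4 UMI was seen in the 100 muscle cells, which allows up to 3.62% of cells with a captured UMI at this depth and sets no limit on cells that express the gene.

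At HH29 the highest BMP4 level was found in interdigit sub-cluster 12, with 183 CPM (158 to 211). The 3 interdigit sub-clusters differed among themselves: the 4th interdigit stood at 84.9 CPM (68.6 to 104) and sub-cluster 6 at 57.7 CPM (46.2 to 71.3). The ratio of sub-cluster 6 to sub-cluster 12 was -1.66 (-2.05 to -1.29) on the log2 scale, and the technical replicates gave 176, 193 and 179 CPM in sub-cluster 12 and 59.7, 58.4 and 52.7 CPM in sub-cluster 6. The values of these 2 sub-clusters therefore did not overlap in any technical replicate. Connective tissue came next, with 138 CPM (117 to 163) in nsCT sub-cluster 9 and 87.8 CPM (74.4 to 103) in nsCT sub-cluster 4, around the undifferentiated mesenchyme (121 CPM) and the cycling mesenchyme (97.8 and 109.7 CPM). Distal mesenchyme held 69.4 CPM (61.6 to 77.8). Below 35 CPM lay SFRP2+ cells, smooth muscle, late chondrocytes (25.7 CPM), skin (21.6 CPM), early chondrocytes (14.02 CPM), muscle (8.67 CPM), joints (8.18 CPM) and endothelium (5.98 CPM, 2 UMIs), and no UMI was found in the 22 leukocytes. In muscle cells a BMP4 UMI was found in 1.90% and a BAMBI UMI likewise in 1.90%, at a median depth of 3914 UMIs. NBL1 stood at 36.8 CPM in muscle, from 17 UMIs. An NBL1 UMI was found in 6.35% of endothelial cells, the HH29 population with its lowest level. How much of these counts came from free RNA was not tested.

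At HH31 the levels of BMP4 ran from 12.6 CPM (6.53 to 22.1) in late chondrocytes to 125 CPM (105 to 147) in interdigit sub-cluster 4. That library had no muscle, joint, endothelium, leukocyte or AER sub-cluster, so its range is not comparable with those of the other libraries. Distal mesenchyme, at 123 CPM (107 to 141), and interdigit sub-cluster 10, at 106 CPM, had intervals that overlapped with the highest one. The cycling mesenchyme ranged from 59.6 to 81.9 CPM, with sub-cluster 6 at 81.2 CPM and nsCT at 54.2 CPM (39.1 to 73.3). Early chondrocytes (29.7 CPM) and skin (22.5 CPM) followed. Along the order of levels, neighbouring intervals overlapped in 5 of 7 steps in the HH25 library, 16 of 17 in the HH29 library and 10 of 10 in the HH31 library, so that only groups of sub-clusters, not single ranks, stand apart.

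BAMBI, the decoy receptor, had its highest level in distal mesenchyme at HH25 and in an interdigit sub-cluster at HH29 and at HH31. At HH29 the interval of that sub-cluster overlapped the one of distal mesenchyme, so the order of these populations is not settled. In HH25 distal mesenchyme the level was 103 CPM (74.3 to 140) and 23.2% of the 151 cells had a UMI, against 23.7 CPM (20.7 to 27.0) and 5.01% in the mesenchyme. AER (56.5 CPM, 3 UMIs), blood-labelled cells (28.0 CPM) and skin (22.6 CPM) lay between or near these values, and all 7 neighbouring pairs of intervals overlapped. Chondrocytes (7.28 CPM) and nsCT (5.03 CPM, 4 UMIs) were lower, and muscle had no UMI in 100 cells. All 3 AER markers and 3 skin markers were at 0 in the HH25 distal mesenchyme.

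At HH29 BAMBI was sparse, with 433 UMIs in all, of which 36.5% fell in the distal mesenchyme, a population of 16.4% of the cells. The level there was 37.7 CPM (32.0 to 44.0), beside 52.0 CPM (39.0 to 67.8) in interdigit sub-cluster 12, 43.8 CPM (32.3 to 58.1) in the 4th interdigit and 21.5 CPM (14.7 to 30.3) in interdigit sub-cluster 6. All other sub-clusters were at 17.95 CPM or lower, and the connective tissue was near the bottom, with 1.95 CPM in nsCT sub-cluster 9 and 1.72 CPM in nsCT sub-cluster 4. BAMBI had a wide technical spread, and the 3 replicates gave 53.7, 29.3 and 26.0 CPM in distal mesenchyme and 69.4, 34.3 and 50.6 CPM in interdigit sub-cluster 12. Replicate 1 was the highest in both.

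At HH31 BAMBI had a 122-fold range between the highest and the lowest sub-cluster, the widest of the 5 genes in that library, with 2 UMIs at the low end. Interdigit sub-cluster 4 stood at 314 CPM (282 to 348), distal mesenchyme at 218 CPM (196 to 242) and interdigit sub-cluster 10 at 209 CPM (178 to 243), and a BAMBI UMI was found in 49.4%, 39.2% and 40.6% of their cells. The cycling mesenchyme was lower, with 68.3 to 86.0 CPM. Skin (46.0 CPM), early chondrocytes (28.5 CPM), sub-cluster 6 (25.8 CPM) and late chondrocytes (10.5 CPM) followed. In nsCT only 2 UMIs in 2 cells were found, a level of 2.58 CPM (0.313 to 9.33).

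NBL1, the secreted antagonist, showed a different distribution. It was highest in connective tissue at HH25 and HH29 and in sub-cluster 6 at HH31, and cartilage lay below the mesenchyme at each stage. At HH25 nsCT stood at 417 CPM (373 to 464), with a UMI in 54.1% of cells. Skin (182 CPM), mesenchyme (149.9 CPM; 26.0% of cells), blood-labelled cells (116 CPM) and chondrocytes (102 CPM) were lower. Distal mesenchyme (83.3 CPM), muscle (48.8 CPM) and AER (37.7 CPM, 2 UMIs) came last. At HH29 the 2 nsCT sub-clusters ranked first, with 402 CPM (364 to 443) in sub-cluster 9 and 344 CPM (317 to 373) in sub-cluster 4. The technical replicates agreed closely, at 394, 373 and 470 CPM in sub-cluster 9 and 359, 331 and 343 CPM in sub-cluster 4. The mesenchyme, distal mesenchyme and the 4th interdigit followed with 161 to 219 CPM, and the other interdigit sub-clusters were at 74.5 CPM (sub-cluster 6) and 49.1 CPM (sub-cluster 12). Late chondrocytes (34.5 CPM), smooth muscle (32.3 CPM), joints (27.3 CPM), leukocytes (13.1 CPM) and endothelium (11.97 CPM) formed the lower end.

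At HH31 the highest NBL1 level was measured in the unnamed sub-cluster 6, at 804 CPM (752 to 859) and with a UMI in 81.6% of cells. Marker sums in that population were 2523 CPM for nsCT, 2184 CPM for mesenchyme and 1412 CPM for distal mesenchyme. The nsCT stood at 617 CPM (563 to 675; 72.5% of cells), the cycling mesenchyme at 476 to 589 CPM and the distal mesenchyme at 453 CPM. The 2 interdigit sub-clusters were unlike each other, with 307 CPM (270 to 349) in sub-cluster 10 and 131 CPM (111 to 154) in sub-cluster 4, a log2 ratio of -1.23 (-1.54 to -0.93) for sub-cluster 4 over sub-cluster 10. Skin (167 CPM), early chondrocytes (142 CPM) and late chondrocytes (49.5 CPM) were at the low end. Early chondrocytes exceeded late ones at both stages, the log2 ratio of late over early being -1.26 at HH29 and -1.52 at HH31.

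ID1, a BMP target gene that in mouse is also known for its part in growing blood vessels, was the most broadly detected of the 5 genes, with a UMI in 57.0%, 62.5% and 54.0% of cells. At HH25 it was highest in AER, at 1619 CPM (1295 to 2000), and chondrocytes, at 1344 CPM (1291 to 1399), followed by skin (1017 CPM), distal mesenchyme (697 CPM), mesenchyme (690.3 CPM) and blood-labelled cells (476 CPM). The nsCT (265 CPM, 231 to 303) and muscle (256 CPM) had the lowest levels. At HH29 the endothelium stood apart with 3770 CPM (3565 to 3984) and a UMI in 93.7% of its 63 cells. The technical replicates gave 3584, 2465 and 5017 CPM there, a wide technical spread that nonetheless stayed above every other sub-cluster's pooled level. The 3 interdigit sub-clusters ranked next, with 1681 CPM in sub-cluster 12, 1533 CPM in sub-cluster 6 and 1427 CPM in the 4th interdigit. At the other end stood nsCT sub-cluster 9 (275 CPM), muscle (227 CPM, 46.7% of cells) and leukocytes (91.7 CPM, 18.2% of 22 cells).

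Within the HH29 cartilage, ID1 was low in the joints, at 300.1 CPM, beside 989 CPM in early and 1140 CPM in late chondrocytes. The log2 ratio of joints to early chondrocytes was -1.72 (-2.02 to -1.44) for ID1 and -1.17 for ID2, and NBL1 had -1.59 in the same comparison. At HH31 ID1 spanned a 4.72-fold range, from 1049 CPM in distal mesenchyme and 1021 CPM in interdigit sub-cluster 10 to 222 CPM (190 to 258) in nsCT. Late (946 CPM) and early (903 CPM) chondrocytes and interdigit sub-cluster 4 (936 CPM) were near the top. The cycling mesenchyme was lower, at 378 to 569.7 CPM.

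ID2 spanned a 3.02-fold range at HH25, where all 7 neighbouring pairs of intervals overlapped while those of the highest and lowest sub-cluster did not. Its levels there ran from 40.2 CPM (27.5 to 56.8) in nsCT to 122 CPM (106 to 139) in chondrocytes. At HH29 the 4th interdigit stood apart at 1646 CPM (1571 to 1724), with a UMI in 93.9% of cells, followed by nsCT sub-cluster 4 at 1077 CPM (1028 to 1126), interdigit sub-cluster 12 at 974 CPM and late chondrocytes at 774 CPM. The technical replicates gave 1603, 1494 and 2027 CPM in the 4th interdigit, each above every replicate of interdigit sub-cluster 12 (754, 935 and 1377 CPM). The other nsCT population, sub-cluster 9, held only 164 CPM (140 to 191), with 156, 163 and 182 CPM in the technical replicates against 881, 995 and 1554 CPM in nsCT sub-cluster 4. Among the interdigit, nsCT, cartilage and cycling sub-clusters compared within a stage, this was the widest gap for any of the 5 genes, a log2 ratio of 2.72 (2.49 to 2.95) for sub-cluster 4 over sub-cluster 9, while NBL1 differed by -0.22 between them, ID1 by 0.88 (0.69 to 1.08) and BMP4 by -0.66 (-0.997 to -0.319). Joints (202 CPM) and leukocytes (52.4 CPM) were low as well.

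At HH31 ID2 was highest in the interdigit, with 445 CPM (407 to 485) in sub-cluster 4 and 316 CPM (278 to 358) in sub-cluster 10, and next in the distal mesenchyme, with 227 CPM (204 to 251). Early chondrocytes (186 CPM) and cycling mesenchyme (113 to 127 CPM) followed, and sub-cluster 6 (51.7 CPM) and nsCT (28.4 CPM, 17.8 to 43.0) were lowest. ID2 thus had its lowest level of the HH31 library in nsCT, whereas 1 of the 2 nsCT sub-clusters at HH29 ranked second of 18.

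**Figure D2:**
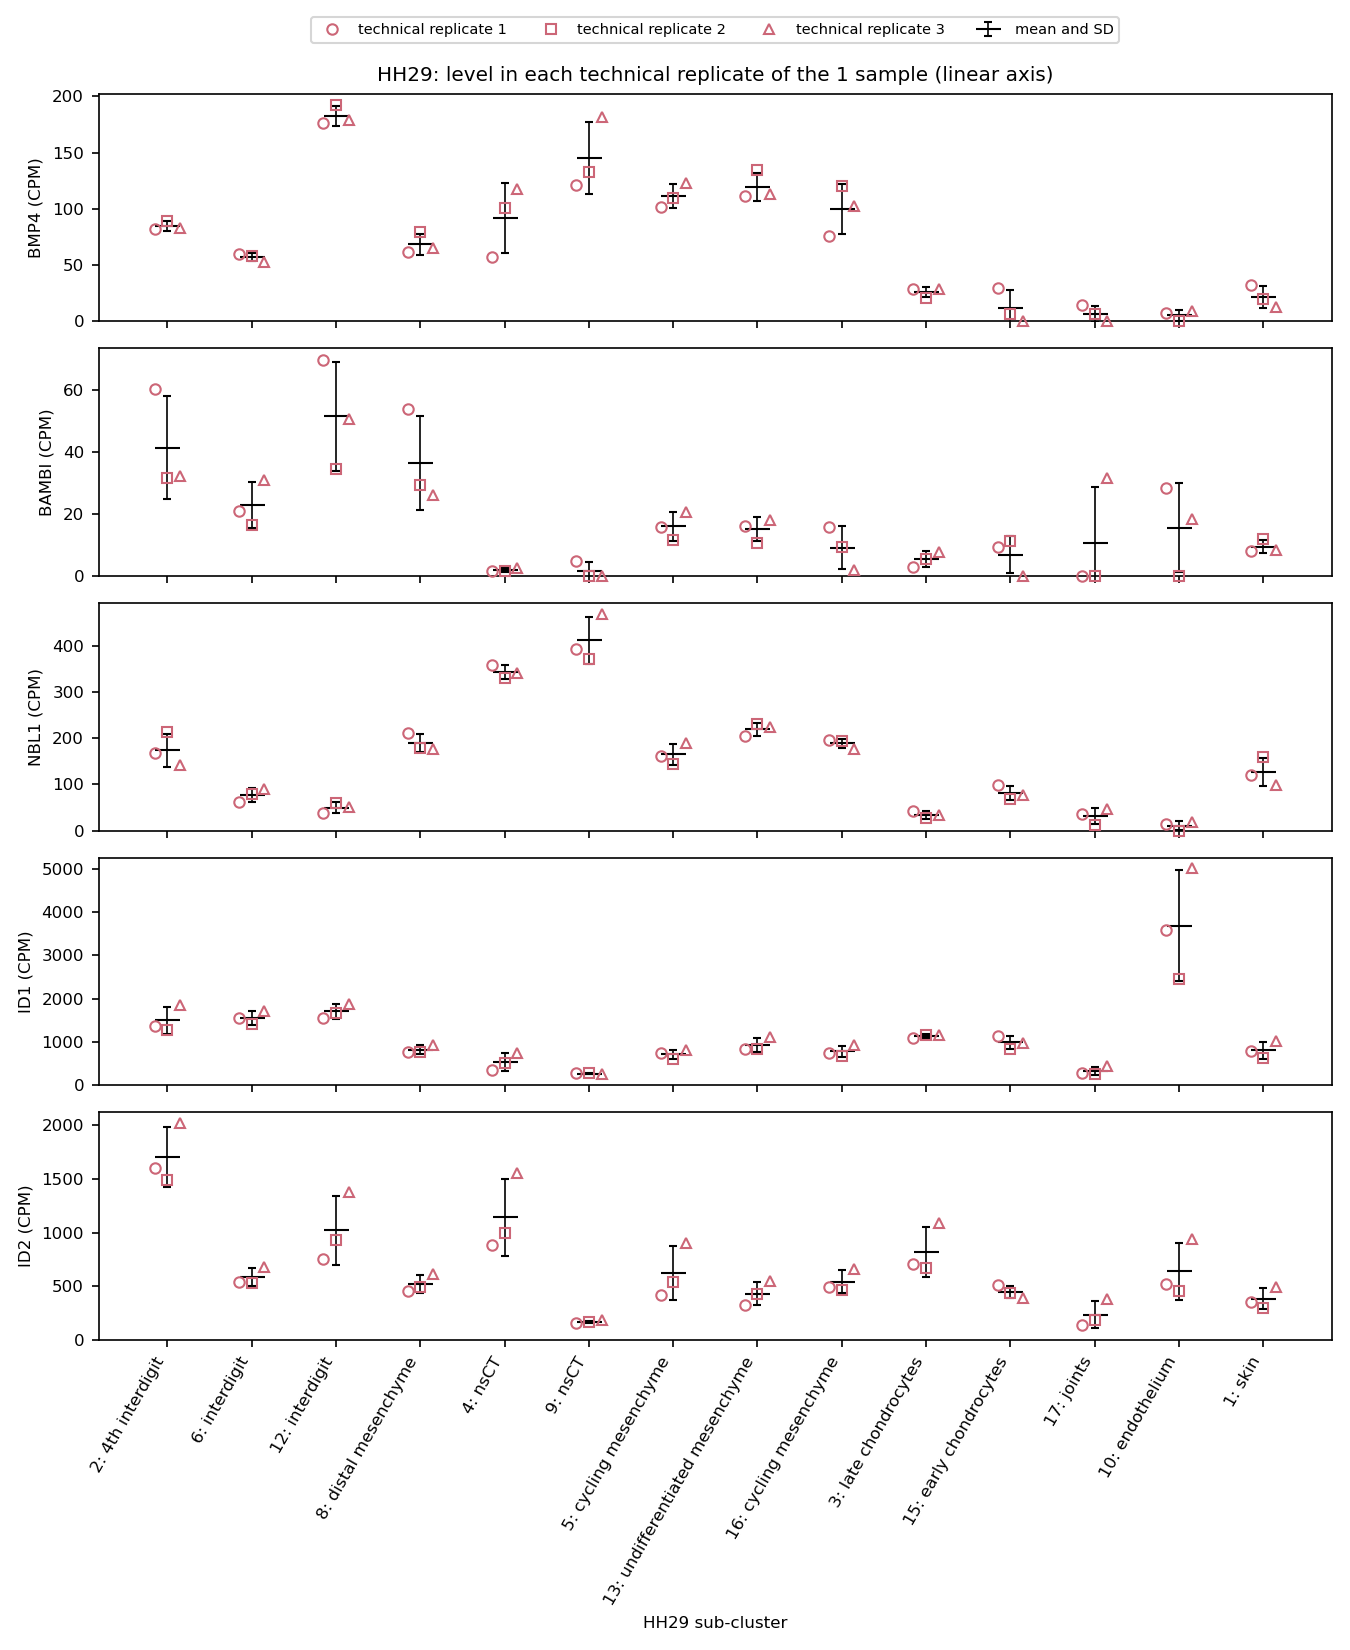
Level of the 5 genes (CPM, linear axis) in the 3 technical replicates of the HH29 library (circle, square and triangle), with their mean and SD, for 14 sub-clusters. BMP4 in interdigit sub-cluster 12 lay at 176 to 193 CPM in every replicate and in sub-cluster 6 at 52.7 to 59.7 CPM, and ID2 in the 4th interdigit lay at 1494 to 2027 CPM.

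Over the whole HH29 library, the technical spread was 78.5 ± 7.4 CPM (SD, n = 3) for BMP4, 165 ± 3.2 CPM for NBL1, 17.8 ± 4.9 CPM for BAMBI, 951 ± 145 CPM for ID1 and 639 ± 136 CPM for ID2. The ID genes shared a direction across replicates. Technical replicate 3 gave the highest ID1 level in 14 of 18 sub-clusters and the highest ID2 level in 15 of 18, while it was highest for NBL1 in 5 and for BMP4 in 4. The log2 ratio of ID1 between the interdigit and the mesenchyme of the same replicate was 0.94 ± 0.05 (SD, n = 3).

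The populations were then compared with the undifferentiated and cycling mesenchyme of the same library, a reference from the same dissection and platform (HH25 sub-cluster 1, HH29 sub-clusters 5, 13 and 16, HH31 sub-clusters 7, 9 and 11). All comparisons of a stage share these reference cells. A gene was counted as higher or lower where its CPM differed at least 2-fold, among genes with at least 20 UMIs in both populations together. In the HH29 reference the highest and lowest sub-cluster differed by 1.24-fold for BMP4 and 1.43-fold for BAMBI, and in the HH31 reference by 1.38-fold for BMP4, 1.26-fold for BAMBI and 1.51-fold for ID1. The reference was thus even for the 5 genes within less than the fold that was counted.

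**Figure D3:**
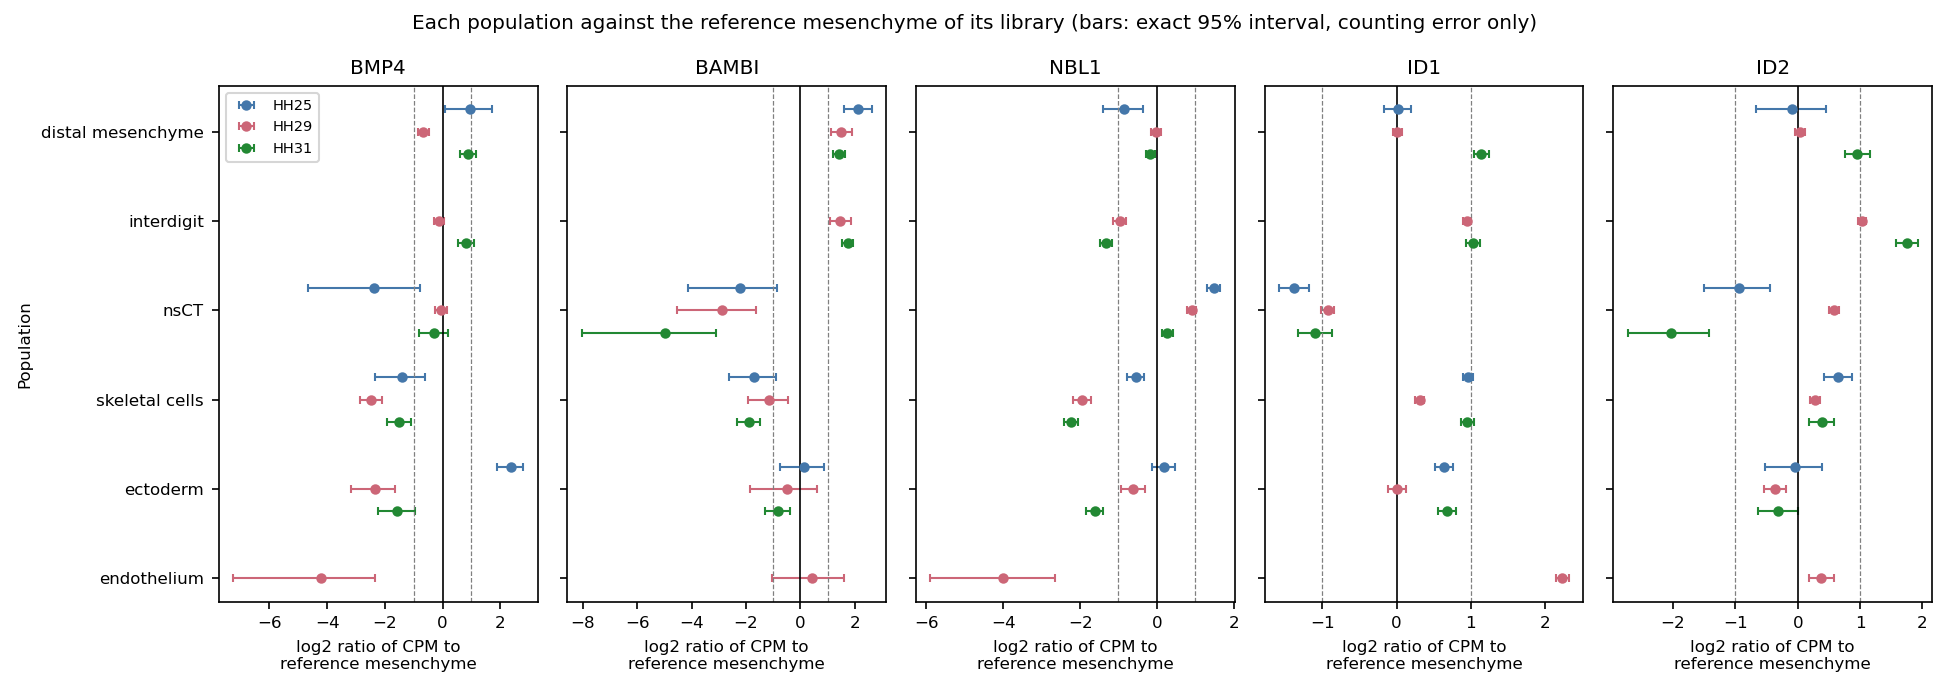
Log2 ratio of CPM to the mesenchyme of the same library for distal mesenchyme, interdigit, nsCT, skeletal cells, ectoderm and endothelium, 1 panel per gene, coloured by stage, with exact conditional binomial 95% intervals; dashed lines mark 2-fold. BAMBI lay above the upper line in distal mesenchyme and interdigit and below the lower line in nsCT and skeletal cells at every stage sampled, and BMP4 in ectoderm lay above it at HH25 and below it at HH29 and HH31.

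In the distal mesenchyme, the cells under the distal margin, BAMBI was higher than in the reference at all 3 stages, and the other members differed by stage. For HH25, HH29 and HH31 the log2 ratio of BAMBI was 2.13 (1.61 to 2.61), 1.49 (1.120 to 1.876) and 1.42 (1.20 to 1.65), with 1.75, 1.48 and 0.91 in the HH29 technical replicates. BAMBI was the only 1 of the 5 members past 2-fold at HH25 and at HH29, where 14.1% and 8.15% of all genes were. At HH31 BAMBI and ID1 (1049 against 475 CPM, log2 1.143, 1.047 to 1.239) were past it, 2 of 5, with 14.5% of all genes. BMP4 changed sides between libraries, with 37.9 against 19.4 CPM in HH25 cells (log2 0.96, 0.10 to 1.72), 69.4 against 110.3 CPM in HH29 cells (log2 -0.67, -0.87 to -0.47) and 123 against 67.0 CPM in HH31 cells (log2 0.88, 0.60 to 1.15). The HH29 technical replicates gave -0.65, -0.64 and -0.80 for BMP4. ID2 had 0.96 (0.75 to 1.16) at HH31, and ID1 and ID2 lay within 0.1 of 0 at HH25 and HH29. NBL1 had -0.85 (-1.39 to -0.35) at HH25 and -0.17 (-0.30 to -0.05) at HH31, the latter turning to 0.03 and 0.04 when the libraries were scaled by the median gene or without ribosomal, haemoglobin and mitochondrial RNA. At HH31 the median gene had -0.20 in this comparison, and with scaling to it BMP4 (1.08) and ID2 (1.16) passed 2-fold as well, as did BMP4 (1.02) at HH25, where its value was 0.45 in thinned cells. With a single reference sub-cluster ID1 at HH31 had 0.88, and in thinned cells ID2 at HH25 had 0.61.

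The interdigit, the tissue between digits that is later removed in the chicken foot, had higher pooled levels of BAMBI and of the targets ID1 and ID2, and lower pooled levels of the antagonist NBL1, with differences among its sub-clusters at HH29. NBL1 in the 4th interdigit (log2 -0.11, -0.33 to 0.11) and ID2 in sub-cluster 6 (log2 0.20, 0.09 to 0.30) lay near the reference. At HH29 ID2 was at 1009 against 494 CPM (log2 1.03, 0.963 to 1.097), with 1.17, 1.01 and 0.90 in the technical replicates, and BAMBI had a log2 ratio of 1.47 (1.08 to 1.86). These were the 2 of 5 members past 2-fold, beside 10.6% of all genes. ID1 was just under that fold, at 1543 against 802 CPM (log2 0.94, 0.892 to 0.998), and NBL1 at 99.1 against 194 CPM (log2 -0.97, -1.14 to -0.80). The pooled BMP4 value of 102 against 110.3 CPM (log2 -0.12, -0.30 to 0.06) hides the spread of 57.7 to 183 CPM among the 3 sub-clusters. Without the 4th interdigit, the sub-cluster rich in haemoglobin RNA, ID2 had 0.57, ID1 0.99, BAMBI 1.35 and NBL1 -1.60, so the HH29 count for ID2 rested on that sub-cluster. Clustering without the pathway genes gave 0.92 for ID2, and scaling to the median gene gave 0.98 for ID2 and -1.02 for NBL1.

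At HH31, 4 of 5 members were past 2-fold in the interdigit, beside 15.3% of all genes. BAMBI (log2 1.73, 1.53 to 1.94), ID1 (971 against 475 CPM, log2 1.03, 0.94 to 1.13) and ID2 (393 against 117 CPM, log2 1.75, 1.58 to 1.92) were higher, and NBL1 (203 against 511 CPM, log2 -1.33, -1.49 to -1.17) was lower. BMP4 had 0.81 (0.54 to 1.07), and 1.06 with scaling to the median gene, which had -0.25. The value of ID1 was the least settled, at 0.77 with a single reference sub-cluster, 0.90 without the 5% deepest cells and 1.28 with scaling to the median gene. ID1 and ID2 were both above the reference in each of the 5 interdigit sub-clusters of the 2 libraries.

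In nsCT, the connective tissue around the skeletal elements, the antagonist and the decoy receptor lay on opposite sides of the reference. BAMBI was lower at every stage, with log2 ratios of -2.24 (-4.12 to -0.86), -2.89 (-4.54 to -1.62) and -4.98 (-8.03 to -3.11) from HH25 to HH31. NBL1 was higher at HH25 (417 against 149.9 CPM, log2 1.48, 1.30 to 1.65) and had 0.91 (0.79 to 1.03) at HH29, with 0.97, 0.83 and 0.95 in the technical replicates, and 0.27 (0.13 to 0.42) at HH31, where 617 stood against 511 CPM. At HH25 4 of 5 members were past 2-fold, with NBL1 higher and BMP4 (-2.37, -4.66 to -0.80), BAMBI and ID1 (-1.38, -1.58 to -1.18) lower, beside 14.2% of all genes. At HH29 BAMBI alone was, 1 of 5, beside 9.89% of all genes, and at HH31 BAMBI, ID1 (-1.097, -1.331 to -0.871) and ID2 (-2.04, -2.73 to -1.42) were, 3 of 5, beside 16.4%. The HH25 values depended on the clustering. When cells were clustered without the pathway genes, the HH25 nsCT gave -0.70 for BMP4, -0.08 for ID1, -0.09 for ID2 and 0.98 for NBL1, and BAMBI stayed at -2.32. The rebuilt population held 611 cells, and its overlap with the 351 cells of the authors' nsCT was 0.32 (cells in both over cells in either). Most cells found in either population were thus not in both, the rebuilt population being the larger one. This overlap is not the share of the authors' nsCT cells that was kept. At HH31 the same procedure gave -0.83 for ID1 and -1.37 for ID2, and BMP4, at -0.30 (-0.81 to 0.17) in all UMIs, had -1.26 in thinned cells. ID2 had -0.95 (-1.51 to -0.44) at HH25 and 0.58 (0.50 to 0.66) at HH29.

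Skeletal cells had less of the ligand BMP4 and of BAMBI at all 3 stages, while pooled ID1 lay above the reference by less than 2-fold. BMP4 had log2 ratios of -1.42 (-2.35 to -0.61), -2.48 (-2.86 to -2.11) and -1.51 (-1.941 to -1.105) at HH25, HH29 and HH31. BAMBI had -1.70 (-2.63 to -0.90), -1.16 (-1.93 to -0.45) and -1.89 (-2.33 to -1.48), the HH29 value rising to -0.77 without technical replicate 1 and to -0.68 in thinned cells. NBL1 had -0.56 at HH25, -1.95 at HH29 and -2.24 (-2.43 to -2.06) at HH31. With BMP4 and BAMBI lower at HH25, 2 of 5 members were past 2-fold beside 14.5% of all genes, and with NBL1 as well it was 3 of 5 at HH29 and HH31, beside 12.8% and 16.7%. ID1 had 0.96 (0.89 to 1.03), 0.31 (0.25 to 0.38) and 0.95 (0.86 to 1.04) at the same stages, and passed 2-fold at HH25 (1.11) and HH31 (1.21) with scaling to the median gene, which had -0.14 and -0.26. The HH29 value of ID1 pools late (0.51) and early (0.30) chondrocytes with the joints, which lay below the reference at -1.42 (-1.70 to -1.15). Clustering without the pathway genes gave -3.93 for BMP4 and -3.39 for BAMBI at HH25.

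The ectoderm differed from the reference in BMP4, and in opposite directions at different stages. At HH25, where it includes the AER, BMP4 stood at 99.2 against 19.4 CPM (log2 2.35, 1.90 to 2.79), and at 1.44 (0.81 to 2.02) without the AER. At HH29 BMP4 stood at 21.6 against 110.3 CPM (log2 -2.35, -3.17 to -1.65) and at HH31 at 22.5 against 67.0 CPM (log2 -1.57, -2.24 to -0.97). BMP4 was the only 1 of 5 members past 2-fold at HH25 and HH29, beside 22.2% and 21.9% of all genes, and at HH31 NBL1 (-1.61, -1.84 to -1.39) was lower too, 2 of 5, beside 26.3%. ID1 had 0.68 (0.56 to 0.80) at HH31 and 0.01 (-0.11 to 0.13) at HH29, and the median gene had -0.13 at HH25 and -0.27 at HH31. Within the HH25 ectoderm, the AER held 10.7-fold more BMP4 than the skin (log2 3.42, 2.63 to 4.22) and less NBL1 (log2 -2.28, from 2 UMIs in the AER). These were 2 of the 4 members with enough UMIs, beside 25% of all genes. Without the 5% deepest cells the AER value for BMP4 was 2.76, and the one for NBL1 was -0.98 in thinned cells. The AER sub-cluster held 2523 CPM of AER markers and 1167 CPM of skin markers, and the skin held 101.5 CPM of AER markers.

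In the HH29 endothelium ID1 was 4.70-fold above the reference (log2 2.23, 2.14 to 2.32), with 2.20, 1.76 and 2.36 in the technical replicates. BMP4 (-4.20, from 2 UMIs) and NBL1 (-4.02, from 4 UMIs) were lower, making 3 of 5 members past 2-fold beside 25.4% of all genes. BAMBI had 0.43 (-1.06 to 1.60) from 6 UMIs, and ID2 had 0.38 (0.17 to 0.58).

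Over all 16 comparisons, 35 of 79 member values (44.3%) were past 2-fold, 13 higher and 22 lower, against 16.1% of the values of all genes. BAMBI was higher in 5 and lower in 6 of 15 comparisons, BMP4 higher in 2 and lower in 7 of 16, and NBL1 higher in 1 and lower in 6. ID1 was higher in 3 and lower in 2, and ID2 higher in 2 and lower in 1. The interval of the ratio lay wholly on 1 side of 0 for ID1 in 10 comparisons above and 3 below, and for BMP4 in 5 above and 8 below. This count was not made for all genes. An interval narrows as the UMIs of a gene rise, so these numbers also follow depth and are no result about ID1 or BMP4. Among all genes too, lower values outnumbered higher ones, except in the HH29 interdigit, nsCT and skeletal cells. The lean to lower values was thus shared in sum only. In nsCT and skeletal cells of HH25 and HH31 both leaned lower. In distal mesenchyme, where all genes leaned lower, members were 1, 1 and 2 higher and 0 lower. In HH31 interdigit, with 240 higher and 885 lower of all genes, they were 3 higher and 1 lower. In HH29 skeletal cells, where all genes leaned higher, members were 0 higher and 3 lower. The comparisons of a stage share reference cells, so these counts are not independent.

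The other genes of the pathway were taken from a list of 35 ligands, receptors, antagonists, transducers and targets, of which 10 besides the 5 members could be matched to an identifier, and 20 were not analysed here. Symbols came from the study's lists of sub-cluster marker and module genes, which were drawn from these same cells, so the matched genes and the 5 members are ones that vary between populations, and their counts are not independent evidence of that. For these 10 genes, 72 of 141 values (51.1%) were past 2-fold, beside 16.1% of the values of all genes. Among the receptors, BMPR1B, the type I receptor of early cartilage, was higher in skeletal cells at every stage, with log2 ratios of 2.70, 3.57 and 4.23, in the populations where the ligand BMP4 was lower. Of the antagonists, NOG (noggin) was higher in HH29 skeletal cells (35.4 against 1.5 CPM, log2 4.53) and CHRDL1 had -0.07 at HH25, 4.09 at HH29 and 4.57 at HH31 in the same tissue, where NBL1 was at or under the reference. SOSTDC1, an antagonist known from tooth and hair development in mouse, was higher in the ectoderm at each stage (6.33, 4.03 and 4.66). NOG was also past 2-fold higher in HH31 skeletal cells and in the interdigit and nsCT of HH29. In the HH29 interdigit and nsCT it was sparse. Its sub-cluster levels there were 1.34 to 5.48 CPM in the interdigit and 2.29 and 5.85 CPM in nsCT. Those values, and the 1.5 CPM of the reference, rest on few UMIs. Of the ligands, BMP2 was higher in the HH29 interdigit (1.06) and past 2-fold higher in HH25 distal mesenchyme. The pooled interdigit value hides a spread of 370 CPM in sub-cluster 12, 166 CPM in sub-cluster 6 and 125 CPM in the 4th interdigit. The HH29 cycling mesenchyme had 113 and 111 CPM. BMP2 was past 2-fold lower in skeletal cells at each stage, in the ectoderm of HH29 and HH31 and in the HH29 endothelium. The target genes MSX1 and MSX2, transcription factors of the limb margin, were lower in nsCT and skeletal cells at each stage. MSX2 was higher in distal mesenchyme at each stage (1.90, 2.16 and 1.09). Both are among the markers used here for distal mesenchyme, so higher values there go with the naming of that population and are no separate result. In the AER, MSX2 stood at 847 against 69.6 CPM in the skin.

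In distal mesenchyme the counts of other pathway genes past 2-fold were 4 higher and 0 lower of 8 at HH25, 2 higher and 3 lower of 9 at HH29, and 1 higher and 2 lower of 9 at HH31. Of all genes, 14.1%, 8.15% and 14.5% were past it. The higher ones at HH29 and HH31 were the population's own markers MSX1 and MSX2 (HH29) and MSX2 (HH31), and both were also among those at HH25. In the interdigit the counts were 3 higher (the sparse NOG among them) and 0 lower of 10 at HH29 and 0 higher and 3 lower of 9 at HH31. Of all genes, 10.6% and 15.3% were past 2-fold there. In nsCT the counts were 0 higher and 4 lower of 8, 1 higher (NOG, from few UMIs) and 3 lower of 10, and 0 higher and 2 lower of 9. The shares of all genes were 14.2%, 9.89% and 16.4%. Skeletal cells had 1 higher and 3 lower of 8, 3 higher and 4 lower of 10, and 3 higher and 5 lower of 10, beside 14.5%, 12.8% and 16.7% of all genes. Over all genes tested, skeletal cells had 383 higher and 821 lower in the HH25 library, 698 higher and 580 lower in the HH29 library, and 317 higher and 939 lower in the HH31 library. In skeletal cells the excess of lower values was thus shared with all genes at HH25 and HH31. The type I receptor BMPR1B was the gene of the list that stood higher there at all 3 stages. Among all genes tested, the interdigit had 599 higher and 457 lower in the HH29 library, and 240 and 885 in the HH31 library. The turn from higher to lower values there was thus shared with all genes. Distal mesenchyme had 497 higher and 644 lower (HH25, where the list leaned higher), 327 and 486 (HH29), and 254 and 810 (HH31). The nsCT had 375 higher and 787 lower (HH25), 564 and 410 (HH29, where the list leaned lower), and 249 and 903 (HH31).

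The genes whose pattern was most like each member were sought over the 34 sub-clusters with at least 50 cells, by the Pearson correlation of log2(CPM + 10) after the mean of each stage was subtracted, among 6685 genes, of which those with a symbol in the study's lists could be named. BMP4 was most like its fellow ligand BMP2 (r = 0.78), followed by AXIN2 (0.74), a WNT target gene, and LRPAP1 (0.72). BAMBI was most like the homeobox genes MSX2 (0.85) and MSX1 (0.81). NBL1 was most like ZFHX3, SCP2 and SEMA3A (0.83 each), ZFHX3 being a marker of nsCT. ID1 had weaker partners, N4BP2L1 (0.68), IFITM3 (0.67) and NRP1 (0.66), and ID2 was most like AKAP12 (0.72), SNAI2 (0.69) and TBX2 (0.66). With an offset of 50 in place of 10, the correlation of BAMBI with MSX2 was 0.81, and MSX2 had rank 3 in place of rank 1. The gene most like NBL1 was SEMA3A with an offset of 1 and SCP2 with an offset of 50. The sub-clusters of a stage share a library, and each r is a description.

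**Figure D4:**
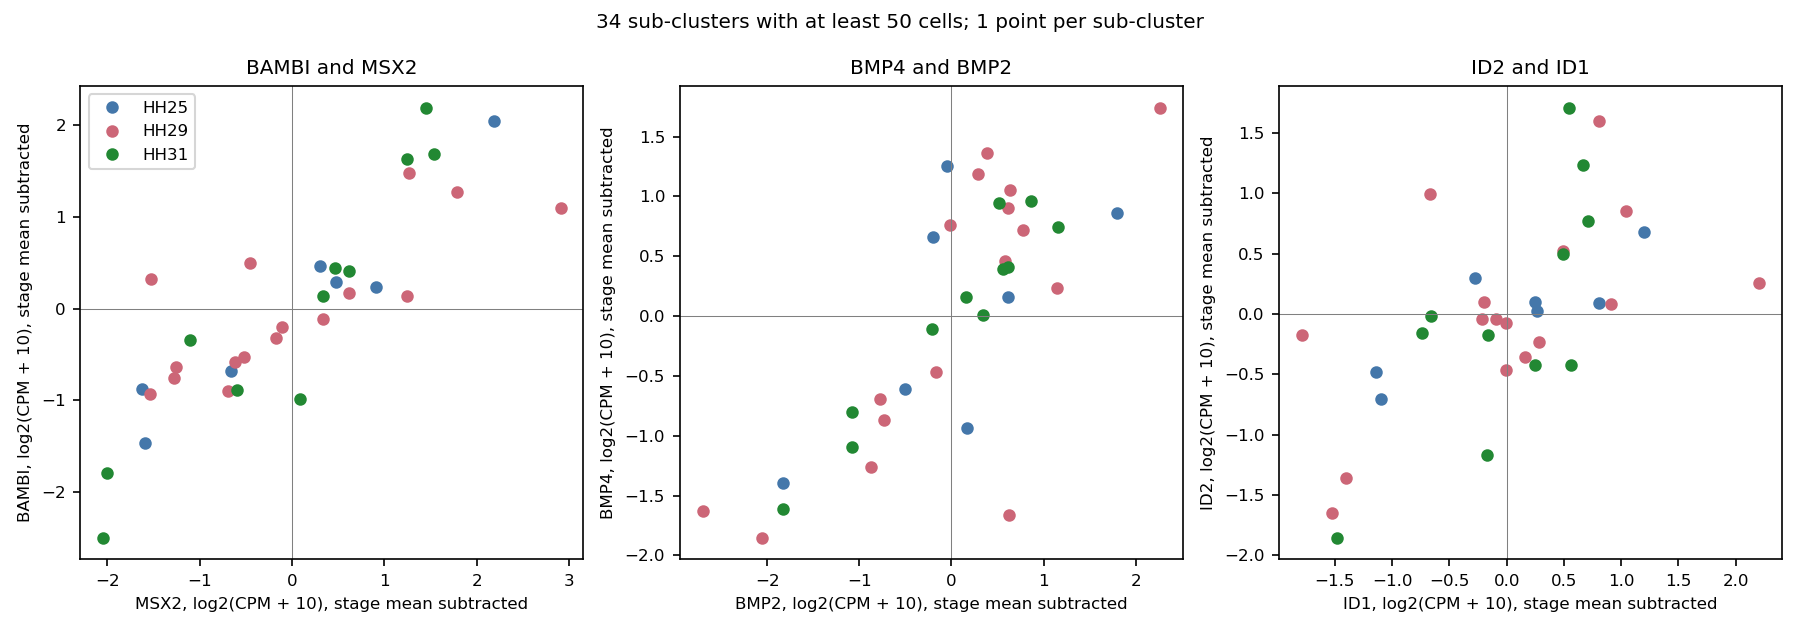
BAMBI against MSX2, BMP4 against BMP2 and ID2 against ID1 over the 34 sub-clusters with at least 50 cells, as log2(CPM + 10) with the mean of each stage subtracted; 1 point per sub-cluster, coloured by stage. BAMBI and MSX2 lie closest to a line (r = 0.85), then BMP4 and BMP2 (0.78), and ID2 and ID1 scatter more widely (0.62).

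Among the members themselves, the highest correlations over these 34 sub-clusters were those of BAMBI with ID2 (r = 0.65), ID1 with ID2 (0.62) and BMP4 with NBL1 (0.59). BMP4 and BAMBI had 0.54, and BAMBI and ID1 0.48. The ligand BMP4 and the target ID1 had 0.11, and NBL1 had -0.36 with ID1, -0.19 with ID2 and -0.02 with BAMBI. By stage, BMP4 and NBL1 had 0.08 over 7 sub-clusters at HH25, 0.72 over 16 at HH29 and 0.60 over 11 at HH31, and BMP4 and ID1 had 0.56, 0.03 and -0.03 over the same sub-clusters. By rank (Spearman), BMP4 and NBL1 had 0.21, 0.71 and 0.19, and BMP4 and ID1 had 0.61, -0.01 and 0.25. The HH31 value for BMP4 and NBL1 thus depended on the measure.

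The members were also followed from cell to cell. Every cell was thinned to 1000 UMIs, and the number of cells with both genes was set against the product of the single shares, in each sub-cluster where that product gave at least 10 cells. ID1 and ID2 were found together more often than the product in 21 of 22 sub-clusters, with a median ratio of 1.30 and a range of 0.996 to 1.76. In the undifferentiated mesenchyme of HH29, for example, 149 cells held both, where the product gave 98.8. NBL1 and ID1 went the other way, with fewer cells than the product in 22 of 25 sub-clusters (median 0.852), and NBL1 and ID2 did so in 11 of 14 (median 0.911). BAMBI and ID1 were together more often in 6 of 7 sub-clusters (median 1.18). For BMP4 and ID1 the ratio was above 1 in 6 and below 1 in 6 of 12 sub-clusters (median 0.990). BMP4 and ID1 therefore shared no common side, whereas ID1 with ID2 lay above and NBL1 with ID1 below the product in most sub-clusters counted. The HH29 sub-clusters pool the technical replicates, and replicate 3 gave the highest ID1 level in 14 of 18 and the highest ID2 level in 15 of 18. Joint detection within a replicate was not examined, so a shift shared by both genes is not separated from joint detection in cells. These ratios are descriptions of sparse counts in 3 libraries and carry no test.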

How the data were processed

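Deposited UMI count tables of whole cells (HH25, HH29, HH31; 1 library each) were used, with the sub-cluster of each cell as a column. Per the labels and methods, the authors had dissociated cells with trypsin, made the deposited counts with Cell Ranger 2 or the Drop-seq pipeline against the Ensembl Gallus_gallus-5.0 annotation, and clustered the cells. Cells above 4 times the mean UMI count, under 20% of the median, or with over 10% of UMIs from 12 mitochondrial genes were removed here, as the study's methods describe, and its ribosomal limit was not applied. No doublet caller was run. Counts were summed per sub-cluster and divided by total UMIs (CPM). A population at 0 was set to 3 UMIs. Thinning used 1000 UMIs per cell (seed 11). No test was possible with 1 library per stage. Sub-cluster names follow the study, and gene symbols (3143) were taken from the name columns of the study's marker and module lists, with no value used. The named genes are the 5 members, the pathway list and the 3 most alike genes per member, of which 1 is not reported here. Members and lists were chosen with earlier results of these data known. Python 3.11.15, numpy 2.4.6, pandas 2.3.3, scipy 1.17.1, scanpy 1.11.5 and leidenalg 0.10.2 were used, and the ratio code was tested on simulated data. Alternatives were other scalings, thinning, leaving out deep cells, technical replicates or doubted sub-clusters, other references, other limits and clustering without the pathway genes.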

Additional observations from a re-analysis of the deposited data

Results flagged for a closer look

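BMP4 in the distal mesenchyme lay above the reference mesenchyme at HH25 and HH31 and below it at HH29, with intervals on opposite sides of 0. The log2 ratio at HH29 minus that at HH25 was -1.63, and that at HH31 minus that at HH29 was 1.55. BMP4 in the ectoderm lay above the reference at HH25 and below it later, a difference in log2 ratio of -4.71 for HH29 minus HH25 and -3.92 for HH31 minus HH25. The HH25 ectoderm pools AER and skin, whereas that of HH29 and HH31 is skin alone, and the skin by itself had 1.44 at HH25, -2.35 at HH29 and -1.57 at HH31. ID2 in nsCT lay below the reference at HH25 and HH31 and above it at HH29, a difference of 1.53 for HH29 minus HH25 and -2.62 for HH31 minus HH29. The HH29 value pools nsCT sub-cluster 4, at 1.12 (1.04 to 1.20), with nsCT sub-cluster 9, at -1.59 (-1.82 to -1.37), and the HH25 value was -0.09 after clustering without the pathway genes. None of these 6 differences between stages was tested, since each stage is 1 library, and stage cannot be told apart from platform and dissection.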

How the results depend on the processing

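No paired analysis was possible because each stage is 1 library. The 14 main ratios kept their sign in all 123 alternatives, and 18 alternatives put them on the other side of 2-fold. Over all 80 results, 37 of 710 alternatives changed the sign and 53 the side of 2-fold. On the log2 scale, BMP4 in HH29 distal mesenchyme was -1.18 in thinned cells. ID1 in the HH29 interdigit was 0.89 with scaling to the median gene, 0.77 with 1 reference sub-cluster and 0.83 after clustering without the pathway genes. ID2 there was 1.27 with 1 reference sub-cluster, 0.92 after that clustering and 0.57 without sub-cluster 2, a choice made after seeing the data. In the HH31 interdigit, ID1 was 1.28 and ID2 1.997 with scaling to the median gene, 1.25 and 1.97 without ribosomal, haemoglobin and mitochondrial RNA, and ID1 was 0.90 without the 5% deepest cells and 0.77 with 1 reference sub-cluster. NBL1 in nsCT was 0.98 at HH25 and 0.79 at HH29 after that clustering, and 0.74 at HH29 with 1 reference sub-cluster. BMP4 in AER over skin was 4.40 in thinned cells and 2.48 after that clustering. Leaving out a technical replicate gave -0.71 to -0.63 for BMP4 and 1.27 to 1.63 for BAMBI in HH29 distal mesenchyme, 0.92 to 0.96 for ID1 and 0.96 to 1.08 for ID2 in the interdigit, and 0.87 to 0.97 for NBL1 in nsCT. The causes were not tested. The count of member values past the fold was 54 in place of 35 at 1.5-fold, 36 with no minimum and 35 with a minimum of 50 UMIs, beside 33.3%, 18.2% and 13.4% of all genes. Clustering without the pathway genes returned 84.9%, 79.4% and 70.5% of cells to their sub-cluster's counterpart and gave no value for the HH25 distal mesenchyme. Depth limits the sparse populations: the AER held 22 cells, and values from 2 to 6 UMIs carry intervals of several log2 units.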

Other observations

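In HH31 every sub-cluster held 750 to 966 CPM of the haemoglobin RNAs HBAA and HBAD, whereas at HH29 the 17 sub-clusters other than the 4th interdigit held 16.1 to 183 CPM. In the interdigit of HH29 the interdigit markers RDH10, ALDH1A2 and SNAI2 summed to 1101 CPM in the 4th interdigit, 902 CPM in interdigit sub-cluster 6 and 2620 CPM in interdigit sub-cluster 12, where BMP4, BAMBI and ID1 were at their highest interdigit levels. For BAMBI this order is not settled, the log2 ratio of the 4th interdigit to sub-cluster 12 being -0.25 (-0.84 to 0.34). ID2 was at its highest in the 4th interdigit instead. Within HH31 cartilage, late chondrocytes were lower than early ones in BMP4 (log2 -1.23), BAMBI (-1.43), NBL1 (-1.52) and ID2 (-0.99), while ID1 had 0.07. At HH29 the same ratio was -0.68 (-2.19 to 0.83) for BAMBI, -1.26 for NBL1, 0.20 for ID1 and 0.77 for ID2. BMP4 had 0.88 (0.03 to 1.79) there, and its early chondrocytes held 29.7, 6.71 and 0 CPM in the technical replicates, against 29.1, 20.9 and 28.4 CPM in late chondrocytes.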
